A study of Rattus norvegicus with 9 samples.

Results

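The vericiguat + AngII treatment group was compared with the AngII group for the level of each gene relative to the other genes of the same library. RNA was sequenced from neonatal rat cardiac fibroblasts (CFs) at passage 2 to 3, with 3 libraries in each group. The AngII group received angiotensin II (AngII), a peptide hormone that activates CFs, at 0.1 µM for 72 h. The vericiguat + AngII treatment group received the same AngII, with vericiguat at 1.0 µM for 24 h ahead of it, so that both groups carry AngII and, by the labels, differ in vericiguat alone. 3 libraries of untreated CFs form the blank group, whose levels are given here for reference only. The labels do not say whether the libraries came from separate cultures, so p-values measure the spread between these libraries, which may be technical. Gene levels were deposited as FPKM, which scales the fragments of a gene by its length and by the fragments of the library. 13 rows named KEF51 and the row ADORA1-2 were left out, and each column was rescaled to a sum of 1000000, and the rescaled values are called ppm here. Genes with FPKM of 1 or more in at least 2 libraries of each group were kept, which left 1152 of the 22512 listed genes. Of these, 197 carry a gene name rather than a LOC number, out of 2152 such names, and they are the genes described below.

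Vericiguat acts on soluble guanylate cyclase, which produces the messenger cGMP when nitric oxide binds, and cGMP activates protein kinase G, which acts on calcium handling and contraction in muscle and on the activation of CFs. CFs make the collagen matrix of the heart and, when activated, contractile proteins of the smooth muscle kind. Heart muscle cells carry the sarcomere, the junctional sarcoplasmic reticulum that releases calcium onto it, and dense mitochondria, so their marker genes differ clearly from those of CFs.

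The libraries of the groups differed in ways that bear on every value below. The KEF51 rows held 96.7% to 97.5% of the summed FPKM in the AngII libraries and 45.3% to 52.3% in the treated ones. The rows kept for rescaling held 0.579% to 0.948% and 35.3% to 45.3%. An FPKM of 1 was therefore worth 65.5 to 94.7 ppm in the AngII libraries and 2.83 to 3.19 ppm in the treated ones, and between 1141 and 1503 genes reached it in the AngII libraries against 11266 to 11551 in the treated ones. The FPKM minimum thus fell on the AngII side: 10213 genes failed it in the AngII group only, 925 of them named, against 3 in the treated group only. The remaining 11130 genes, 1029 of them named, failed it in both groups. In the blank libraries an FPKM of 1 was worth 80.2, 277 and 129 ppm, and 246 to 1528 genes reached it. The gene LOC100353654 alone took 12.5% to 50.2% of the rescaled blank columns, so the blank levels given below are not firm references. The AngII libraries also varied more, with a median SD of 0.778 on the log2 scale over the named genes tested, against 0.183 in the treated libraries. The correlation of log2 levels across the 1152 genes, which are not independent replicates, was 0.570 to 0.778 within the AngII group and 0.978 to 0.987 within the treated group. The labels give rat as the organism, and the submitters' processing notes name the genome build OryCun2.0, which is an assembly of the rabbit. What that did to the levels was not tested.

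CASQ2 and TRDN are the genes for which sequence is shown, because they encode calsequestrin-2 and triadin, partners in the calcium release complex of the sarcoplasmic reticulum, and their relative levels moved in opposite directions, as described below. TRDN was tested only through its higher AngII values, which limits what its direction says. The windows are those of the rat genes in RefSeq on GRCr8, a build other than that of the files, from 250 bases before the gene start to 50 after it. A box for MEF2, a family of muscle transcription factors, was searched by its consensus on both strands, and the match is in capitals. CASQ2 holds 1 match, on the minus strand, starting 149 bases before the gene start, and the TRDN window holds none. Their positions are chr2:192214306-192214605 on the plus strand for CASQ2 and chr1:26229550-26229849 on the minus strand for TRDN.
CASQ2: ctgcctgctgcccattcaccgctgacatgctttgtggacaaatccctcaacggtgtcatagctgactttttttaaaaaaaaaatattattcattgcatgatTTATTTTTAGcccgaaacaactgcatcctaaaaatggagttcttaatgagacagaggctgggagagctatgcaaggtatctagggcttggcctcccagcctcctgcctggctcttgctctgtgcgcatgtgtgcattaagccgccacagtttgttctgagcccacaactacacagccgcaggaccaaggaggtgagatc
TRDN: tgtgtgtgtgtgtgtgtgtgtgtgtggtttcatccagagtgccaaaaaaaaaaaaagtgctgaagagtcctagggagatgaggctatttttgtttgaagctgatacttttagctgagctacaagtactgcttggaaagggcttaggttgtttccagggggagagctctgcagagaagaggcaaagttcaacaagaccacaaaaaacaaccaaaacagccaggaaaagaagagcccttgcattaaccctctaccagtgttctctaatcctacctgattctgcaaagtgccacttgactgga
The box occurs in 627 of the 33469 windows of the table (1.87%). Of the 197 named genes tested, 147 have a window there and 5 of these hold a box (3.4%): ALDOA, AQP1, CASQ2, SNURF and YWHAH. Of the 13 genes called below, 9 have a window and 2 hold a box, ALDOA and CASQ2. A match describes the letters only and is not evidence of a bound site.

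A call required an adjusted p below 0.05 and a log2 difference of 1 or more in size, by limma on log2(ppm + 1) with Benjamini-Hochberg adjustment over the 1152 genes. This called 66 genes (5.73%), of which 35 (3.04%) were higher and 31 (2.69%) lower in the treated libraries. Among named genes 13 of 197 were called (6.6%), 10 higher (5.08%) and 3 lower (1.52%), and 53 (26.9%) had an unadjusted p below 0.05. Log2 differences had a median of 0.073 over all genes tested, 0.30 over the named genes and -0.00387 over the LOC genes, and 68.5% of the named genes lay above 0, against 53.1% of all genes. The groups did not overlap for 67 named genes (34.0%), 49 with the treated libraries higher (24.9%) and 18 with them lower (9.14%), against 423 (36.7%) of all genes. The split of the calls rested on the scaling. With the sum taken without the 20 genes of highest level, the median over all genes was -0.20 and 105 genes were called, 28 higher and 77 lower. LOC100353654 alone took 9.19% to 27.4% of the rescaled AngII columns and 0.208% to 0.336% of the treated ones. On the deposited FPKM without rescaling the median was 4.26, and 1139 genes, with all 197 named ones among them, were called, 1138 of them higher. Every direction below is therefore relative to the other genes of a library.

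The number of calls also changed with any library left out, falling for each treated library and rising for each AngII library. For ACTB, leaving out each treated library in turn gave differences of 2.38, 2.44 and 2.25, against 2.36 with all libraries. Its SE rose from 0.423 to 0.548, 0.550 and 0.536. Leaving out the first, the second or the third treated library left 5, 7 and 3 genes called and 0 named genes (limma), with 29, 30 and 31 named genes at an unadjusted p below 0.05. Leaving out the first, the second or the third AngII library called 199 of 881, 264 of 906 and 140 of 811 genes tested. Of named genes, 31 of 151, 54 of 177 and 22 of 145 were called. Fewer genes were tested there, since both remaining AngII libraries had to reach the minimum, so these counts come from other sets of genes. With a minimum that does not look at the groups, 10 ppm or more in any 3 of the 6 libraries, 123 of 852 named genes were called (14.4%), 117 higher (13.7%) and 6 lower (0.704%), and all 13 genes called here were among them. With all 9 libraries in the fit 7 named genes were called, and ACTB, ANKRD1, CASQ2, CKMT2, ST3GAL4 and TRDN missed the threshold. CKMT2 also missed it with group-wise weights.

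**Figure D1:**
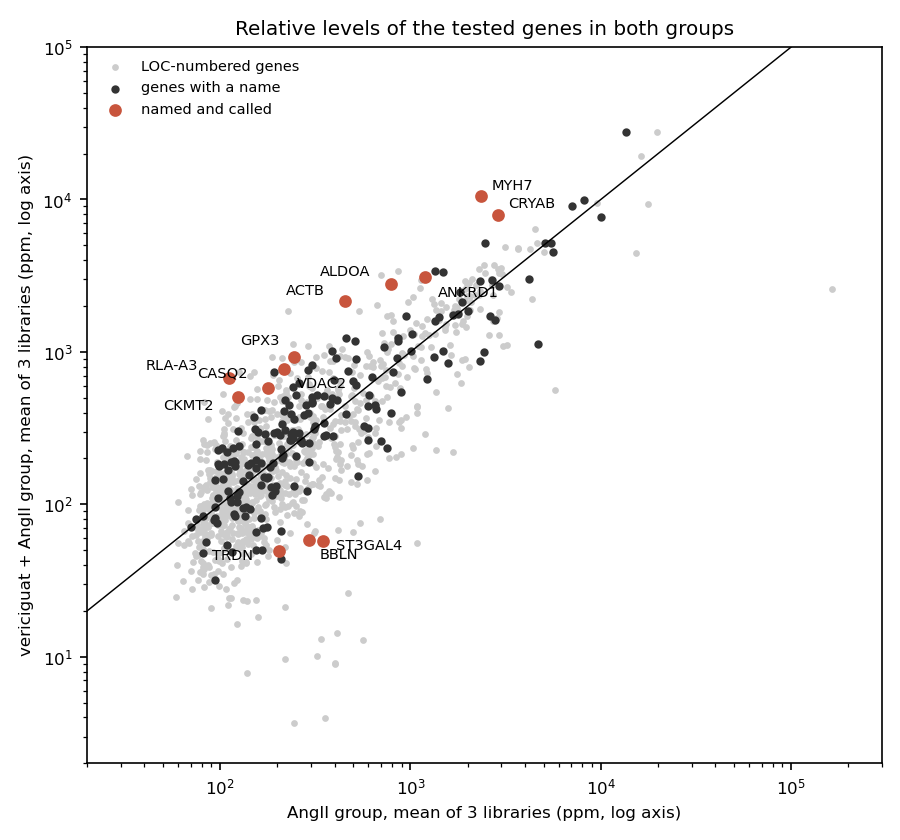
Mean level of each of the 1152 genes tested in the AngII group (x axis) and the vericiguat + AngII group (y axis), in ppm on log axes, with the line of equal levels. Grey points are LOC genes, black points named genes and red points the 13 named genes called, 10 above the line and 3 below it.

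Genes of the sarcomere and myofibril were the largest group among the calls. Of the 11 genes of this list that the table names, 6 were tested, 3 were called higher and none lower, and all 6 differences lay above 0 with a median of 1.25. Over all named genes 68.5% lay above 0 with a median of 0.30, 5.08% were called higher and 1.52% lower. The counts of each list below are to be read beside these shares. MYH7, the slow myosin heavy chain of heart and skeletal muscle, stood at 889, 4836 and 1352 ppm in the AngII group and at 12303, 10529 and 8834 ppm in the treated ones. The lowest treated library was above the highest AngII library, although AngII libraries themselves spanned a wide range. MYH7 rose by 2.54 ± 0.576 (SE) on the log2 scale (adjusted p = 0.0426), a 4.47-fold difference of means, and its blank libraries held 319, 383 and 317 ppm. This call was lost without the third AngII library, without the 20 highest genes in the sum and without the trend in limma.

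CRYAB, a small heat shock protein that protects desmin and the Z-disc, stood at 2886, 3796 and 1985 ppm in the AngII libraries and 8224, 9257 and 6339 ppm in the treated ones. It rose by 1.49 ± 0.328 (SE, adjusted p = 0.042, limma). ANKRD1, a stretch-responsive ankyrin-repeat protein of the sarcomere and nucleus, stood at 1507, 877 and 1209 ppm in the AngII libraries and 2921, 3143 and 3292 ppm in the treated ones, and rose by 1.41 ± 0.318 (SE, adjusted p = 0.0426). The groups were apart for both genes, and for ANKRD1 the AngII libraries were in turn above the blank ones, at 261, 95.7 and 154 ppm. The call of ANKRD1 was lost when columns were centred on their median, without the 20 highest genes in the sum and with all 9 libraries in the fit. Both calls were lost without the trend in limma and with group-wise weights on the libraries, a setting chosen after seeing the data.

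The other members did not pass the test. DES, the muscle intermediate filament desmin, stood at 332, 459.5 and 429 ppm in the AngII libraries and 1367, 685 and 678 ppm in the treated ones, a difference of 1.09 (adjusted p = 0.119, limma) with the groups apart. TPM1, a tropomyosin, differed by 0.55 (95% interval -0.23 to 1.33). MYH6, the fast cardiac myosin heavy chain, stood at 254, 3897 and 306 ppm in the AngII group and at 1363, 947 and 726 ppm in the treated ones. Its second AngII library was above all treated ones and the others below, and its difference of 0.54 (95% interval -1.64 to 2.72) turned negative without the first or the third AngII library, at -0.16 and -0.025.

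**Figure D2:**
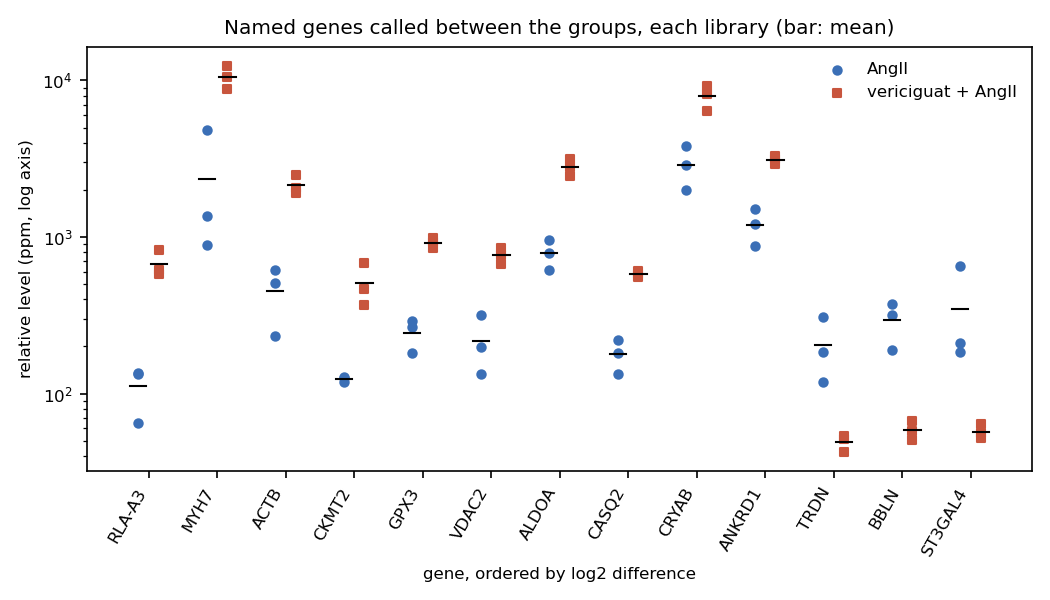
Level of each of the 13 named genes called (x axis, ordered by log2 difference) in every library, in ppm on a log axis. Circles are the 3 AngII libraries, squares the 3 vericiguat + AngII libraries and bars the means. The groups do not overlap for any of these genes, and the AngII libraries spread more widely for MYH7 and ST3GAL4.

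The genes of calcium cycling that were tested had differences on both sides of 0. Of the 22 genes that the table names, 6 were tested, with 1 called higher and 1 lower and a median of 0.43. A further 12 failed the minimum in the AngII group only. The gene called lower, TRDN, was tested only through its higher AngII values, as described below. CASQ2, the main calcium-binding protein in the lumen of the cardiac sarcoplasmic reticulum, stood at 182, 220.3 and 133 ppm in the AngII group and at 607, 581 and 552 ppm in the treated ones. All treated libraries were close together and well above the AngII ones, and CASQ2 rose by 1.72 ± 0.33 (SE, adjusted p = 0.0301, limma), or 3.25-fold. The blank libraries held 35.1, 42.0 and 20.5 ppm.

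TRDN, which anchors calsequestrin to the ryanodine receptor, stood at 118, 184 and 307 ppm in the AngII group and at 53.6, 51.1 and 42.5 ppm in the treated ones. Every treated library was below every AngII library. The treated levels were also below the 65.5 to 94.7 ppm that an FPKM of 1 was worth in the AngII libraries. A gene at such levels in the AngII group fails the minimum used here, so TRDN was tested only through its higher AngII values. TRDN fell by 1.93 on the log2 scale (SE 0.436, adjusted p = 0.0426, limma), and its mean was 4.14 times higher in the AngII group, while on the deposited FPKM it was higher in the treated group by 2.35. The call missed the threshold with median-ratio scaling, with quantile normalization and with all 9 libraries in the fit, with the same direction.

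The remaining members did not pass the test. ATP2A2, the calcium pump SERCA2, stood at 195, 442 and 85.6 ppm in the AngII libraries and 794, 516 and 467 ppm in the treated ones, a difference of 1.56 with the groups apart (adjusted p = 0.132, limma). PLN, the inhibitor of that pump, overlapped between groups, with 3091, 657 and 1691 ppm against 3255, 1825 and 2314 ppm and a difference of 0.67 (95% interval -0.61 to 1.94). SRL, the calcium-binding protein sarcalumenin, stood at 203, 1031 and 352.5 ppm in the AngII libraries and 156, 165 and 137 ppm in the treated ones, a difference of -1.46 (adjusted p = 0.141), which on the deposited FPKM was 3.04.

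Contractile genes of the smooth muscle kind, many of them targets of serum response factor, had 3 of 7 named members tested. ACTB, cytoplasmic beta-actin, stood at 507, 613 and 232.5 ppm in the AngII libraries and 2059, 1907 and 2488 ppm in the treated ones. It rose by 2.36 ± 0.423 (SE, adjusted p = 0.0234, limma), a 4.77-fold difference of means with the groups far apart. The blank libraries held 3447, 849.8 and 2876 ppm, so that the first and the third were above all treated libraries. CAV1, the coat protein of caveolae, stood at 408, 290.0 and 209 ppm against 781, 773 and 918 ppm and just missed the threshold, with a difference of 1.49 (adjusted p = 0.0512). CALD1, caldesmon, differed by -0.18 (95% interval -1.19 to 0.83), and its sign changed with quantile normalization (0.089) and on the deposited FPKM (3.70). Its treated levels of 75.6, 65.2 and 94.4 ppm were near what an FPKM of 1 was worth in the AngII libraries. The minimum therefore bears on its direction too.

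Most of the collagens and matrix genes tested had differences below 0, without passing the test. Of 10 named members 7 were tested, 0 were called by limma, 5 of the differences lay below 0 and the median was -1.05. 1 member, MGP, had an unadjusted p below 0.05. MGP, matrix Gla protein, an inhibitor of calcification, stood at 4103, 1009 and 1836 ppm in the AngII libraries and 952, 783 and 871 ppm in the treated ones, so that the groups were apart but the second AngII library was near the treated level. Its difference was -1.18 (adjusted p = 0.17, limma), and 3.53 on the deposited FPKM. COL1A2, a chain of type I collagen, stood at 486, 26.3 and 115 ppm in the AngII libraries against 42.6, 46.8 and 41.7 ppm in the treated ones. The AngII libraries lay on both sides of the treated ones, and the 95% interval of the difference of -1.37 ran from -3.49 to 0.74, with 2.49 on the deposited FPKM. At its treated levels COL1A2 would have failed the minimum in the AngII group. BGN, also of this list, stood at 203, 61.3 and 242 ppm in the AngII libraries and 81.3, 55.5 and 73.1 ppm in the treated ones. An FPKM of 1 was worth 65.5 to 94.7 ppm in the AngII libraries, so the minimum bears on BGN as well. Both genes bear on the list median, and nothing is read from its sign. The proteoglycans DCN and LUM differed by 0.21 and -0.071, and both changed sign under some alternatives, as did COL1A2 and MGP. COL1A1 and COL3A1 are not named in the table.

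Mitochondrial carriers and energy transfer genes had 6 of 8 named members tested, with 2 called higher, none lower and all 6 differences above 0. Of all named genes 68.5% lay above 0 and 5.08% were called higher. CKMT2, the mitochondrial creatine kinase of sarcomeric muscle, stood at 118, 126 and 128 ppm in the AngII libraries and 680.5, 468 and 365 ppm in the treated ones, and was listed at 0 in all blank libraries. It rose by 1.97 ± 0.344 (SE, adjusted p = 0.0217, limma), or 4.06-fold. VDAC2, a channel of the outer mitochondrial membrane, stood at 319, 199 and 134 ppm against 856, 772 and 672 ppm, and rose by 1.90 ± 0.394 (SE, adjusted p = 0.0367). In both genes every treated library was above every AngII library. SLC25A4, the ADP/ATP carrier of the heart, had the smallest difference of the list, 0.30 (95% interval -0.46 to 1.07), with overlapping groups.

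Nuclear genes of oxidative phosphorylation did not move together. Of 19 tested, 0 were called by limma, 5 had an unadjusted p below 0.05, 12 lay above 0 and 7 below, and the median of 0.21 was close to the 0.30 of all named genes. The 15 genes of the ATP synthase showed the same range, with 10 above 0 and 5 below. ATP5F1A, the alpha subunit that takes part in catalysis, stood at 590, 238 and 539 ppm in the AngII libraries and 1468, 1275 and 957 ppm in the treated ones, a difference of 1.52 (adjusted p = 0.0691, limma). ATP5MC2, a copy of the membrane ring subunit, stood at 684, 618 and 493 ppm against 375, 371 and 212 ppm, a difference of -0.94 (adjusted p = 0.143), which on the deposited FPKM was 3.67. The groups were apart for both, in opposite directions. ATP5F1E, a small subunit of the rotor, and ATP5IF1, the inhibitor of the enzyme, differed by 1.20 each (adjusted p = 0.0628 and 0.113), and ATP5PD, a stalk subunit, by 0.36.

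Glycolysis had 8 of 14 named members tested, of which ALDOA was called higher and none lower, with a median of 0.65. ALDOA, the muscle form of aldolase, stood at 784, 613 and 960.0 ppm in the AngII libraries and 3132, 2790.4 and 2465 ppm in the treated ones. Both groups were tight and far apart, and ALDOA rose by 1.85 ± 0.317 (SE, adjusted p = 0.0217, limma), or 3.56-fold. GPI, the enzyme of the step that makes fructose 6-phosphate, stood at 179, 185 and 125 ppm against 499, 408 and 347 ppm and missed the threshold with a difference of 1.36 (adjusted p = 0.0558). GAPDH, a common reference gene, stood at 5939, 7683 and 7586 ppm in the AngII libraries and 9057, 9651 and 8318 ppm in the treated ones, a difference of 0.36 (95% interval -0.20 to 0.91). PYGM, muscle glycogen phosphorylase, differed by 1.10 (adjusted p = 0.171), and SLC2A4, the insulin-responsive glucose transporter, by -0.86 (adjusted p = 0.421; 3.17 on the deposited FPKM). SLC2A4 stood at 72.5, 66.8 and 73.3 ppm in the treated libraries, and at these levels it would have failed the minimum in the AngII group. It was tested through its higher AngII values, with 377 ppm in the second library, so nothing is read from the direction.

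Redox and stress genes had 6 of 9 named members tested and GPX3 called. GPX3, the secreted glutathione peroxidase, stood at 266, 289 and 181 ppm in the AngII libraries and 928, 852 and 981 ppm in the treated ones, and rose by 1.93 ± 0.332 (SE, adjusted p = 0.0217, limma), or 3.75-fold. The treated libraries were all above the AngII ones and all below the blank ones, which held 2855, 2137 and 2753 ppm. GPX1, its cytosolic relative, differed by 0.98 and PDIA3, an oxidoreductase that folds proteins in the endoplasmic reticulum, by 1.26 (adjusted p = 0.248 and 0.176). FTL, the ferritin light chain, stood at 2010.4, 3967 and 2409 ppm against 1782, 1296 and 1774 ppm, a difference of -0.74 (adjusted p = 0.226) that was 3.99 on the deposited FPKM.

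3 called genes belong to none of the lists. RLA-A3, a class I histocompatibility antigen that presents peptides to T cells, had the smallest adjusted p of the named genes. It stood at 136, 134 and 65.1 ppm in the AngII libraries, 576, 612 and 823 ppm in the treated ones and 395, 203 and 345 ppm in the blank ones, and rose by 2.63 ± 0.394 (SE, adjusted p = 0.0143, limma). The AngII libraries were thus below both other groups. They lay near the minimum, with a mean FPKM of 1.32, and the third was below an FPKM of 1. Class I genes are near-identical copies of each other, so its level is uncertain where reads could be split between them.

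BBLN, a small coiled-coil protein, stood at 190, 316 and 373 ppm in the AngII libraries and 57.8, 66.6 and 50.2 ppm in the treated ones, and fell by 2.27 on the log2 scale (SE 0.371, adjusted p = 0.0209, limma). ST3GAL4, a sialyltransferase that caps sugar chains of glycoproteins, stood at 184, 650 and 212 ppm against 56.3, 63.5 and 51.8 ppm, and fell by 2.34 (SE 0.503, adjusted p = 0.0382). The blank libraries held 108, 92.4 and 136 ppm of BBLN and 49.9, 14.9 and 73.1 ppm of ST3GAL4, so the AngII libraries were the highest of the groups in both. For ST3GAL4 each blank level was below an FPKM of 1. On the deposited FPKM both genes were higher in the treated libraries, by 2.18 and 2.10. At their treated levels both would have failed the minimum in the AngII group, so both were tested only through their higher AngII values.

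**Figure D3:**
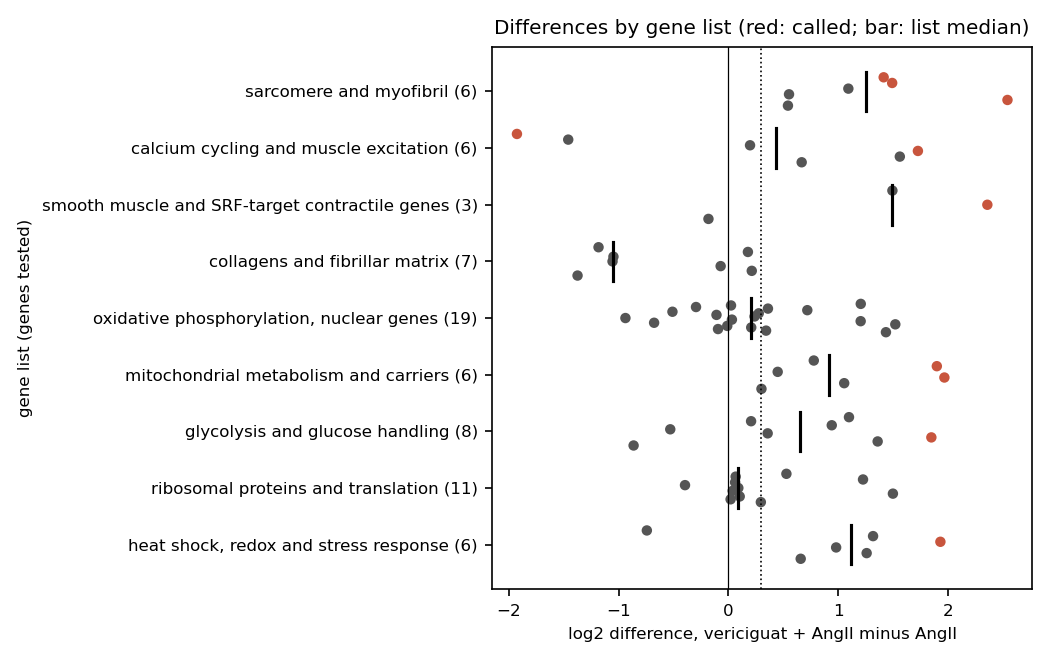
Log2 difference (x axis, vericiguat + AngII minus AngII) of each gene tested in the lists with 3 or more such genes (y axis), with called genes in red, a bar at the median of each list and a dotted line at 0.30, the median of all named genes. Sarcomere genes lie above 0 and matrix genes mostly below on this scale, where every gene plotted lies above 0 on the deposited FPKM. Some genes below 0, such as COL1A2 and TRDN, were tested only through their higher AngII values.

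Ribosomal proteins and translation factors stayed near the middle, with 11 tested, 0 called by limma, 2 at an unadjusted p below 0.05 and a median of 0.090. RPL18, a protein of the large ribosomal subunit, had the largest difference of this list, 1.497 (adjusted p = 0.0705), followed by EEF1A2, the muscle form of an elongation factor, at 1.22 (adjusted p = 0.0712). RPS29, of the small subunit, had the smallest at -0.40, or 4.35 on the deposited FPKM. Single genes of other lists are DCN, already given, for TGF-beta signaling and TPT1 for the cell cycle, at -0.038. No gene was tested of the lists for natriuretic peptides and cGMP (7 in the table), cytokines (25), growth factors (13), angiotensin and adrenergic signaling (15), integrins (8) or ubiquitin, proteasome and autophagy (2). The last list does not hold PSMD4, a proteasome subunit, or GABARAP, an autophagy protein, which were tested and not called (0.78 and 0.55, named after their values were seen). Matrix proteases had 2 of 14 tested, CST3 at 0.18 and MMP2 at -0.50, and 0 were called by limma or had an unadjusted p below 0.05. MMP2 stood at 61.1, 54.1 and 55.0 ppm in the treated libraries, less than an FPKM of 1 was worth in any AngII library. It was thus tested only through its higher AngII values.

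The summed levels of cardiomyocyte and endothelial markers were apart between the groups, and those of fibroblast and leukocyte markers overlapped. Of 15 cardiomyocyte markers, 6 have a name in the table, and their summed level was 3383 to 9477 ppm in the AngII libraries and 12175 to 17202 ppm in the treated ones. MYH7, described above, made up most of the treated sums. Without it the sums were 3371, 4641 and 2031 ppm against 4899, 3052 and 3341 ppm, and the groups overlapped. NPPA was at 0 in the first and the second AngII and the second treated library. The summed level of the 4 named fibroblast markers of 16 was 616 to 2437 ppm against 1162 to 1491 ppm, with FN1 at 0 in the second AngII library. That of 3 of 15 endothelial markers was 12.3 to 51.9 ppm against 230.4 to 271 ppm. VWF and KDR, which made up most of the treated sums, failed the minimum in the AngII group only, so nothing is read from the direction. NOS3 was at 4.45, 15.4 and 0 ppm in the AngII libraries against 0.136, 0.231 and 0.540 ppm in the treated ones. The summed level of 5 of 22 leukocyte markers was 47.6 to 203 ppm against 83.5 to 136 ppm. CD3E was at 0 in all AngII libraries. In RNA from whole cultures, a change in the number of cells of a type and a change of RNA per cell cannot be told apart, and the part of these cell types in the results was not tested.

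Hemoglobin genes were among the most abundant named genes. HBA stood at 11071, 17668 and 11827 ppm in the AngII libraries and 18089.8, 27571 and 37138 ppm in the treated ones, a difference of 1.00 (adjusted p = 0.0904, limma). HBB2 overlapped between the groups at a difference of 0.19, which was negative without the second treated library (-0.047). Of 5 named erythroid markers HBG2 was at 0 in all 6 libraries, and the summed level was 19344 to 25451 ppm against 23693 to 48343 ppm.

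The levels of some genes were too low in the AngII group to be tested. The 10 of highest mean level in the treated libraries are given with no test, since failing the minimum in the AngII group itself sets the direction. TNFSF10, the death ligand TRAIL, stood at 41.2, 21.0 and 34.6 ppm in the AngII libraries and 501, 538 and 679 ppm in the treated ones. IRF1, a transcription factor of the interferon response, stood at 12.03 and 27.5 ppm and at 0 in the AngII libraries, against 284, 354 and 432 ppm. WARS1, a tRNA synthetase induced by interferon, stood at 83.7, 230 and 39.1 ppm against 517, 532 and 611 ppm. Of these 3 genes, WARS1 was above all treated libraries in each blank library, at 1353, 712 and 1233 ppm, while TNFSF10 and IRF1 were below them.

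ACTA2, smooth muscle alpha-actin and a marker of activated CFs, stood at 97.6, 0 and 7.46 ppm in the AngII libraries, 474, 402 and 676 ppm in the treated ones and 624, 58.1 and 495 ppm in the blank ones. TPM2, another tropomyosin, stood at 104, 31.9 and 58.2 ppm against 233, 233 and 276 ppm. The other 5 were GJA1, the gap junction protein connexin 43, CAVIN2, which shapes caveolae, PODXL, a sialomucin, SLC26A10P and C12H6orf62, with 192 to 501 ppm in the treated libraries. Of all 925 named genes that failed in the AngII group only, the treated libraries were apart above the AngII ones for 443 (47.9%) and apart below them for 22 (2.38%), against 46.2% and 2.98% of all 10213 such genes and 18.7% and 18.1% of the 1152 genes tested. These genes were selected by their low level in the AngII group, so nothing is read from the direction. MYMX, a membrane microprotein of muscle cell fusion, was the named gene that failed in the treated group only, at 100.5, 0 and 106 ppm in the AngII libraries and 0 in all treated ones.

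**Figure D4:**
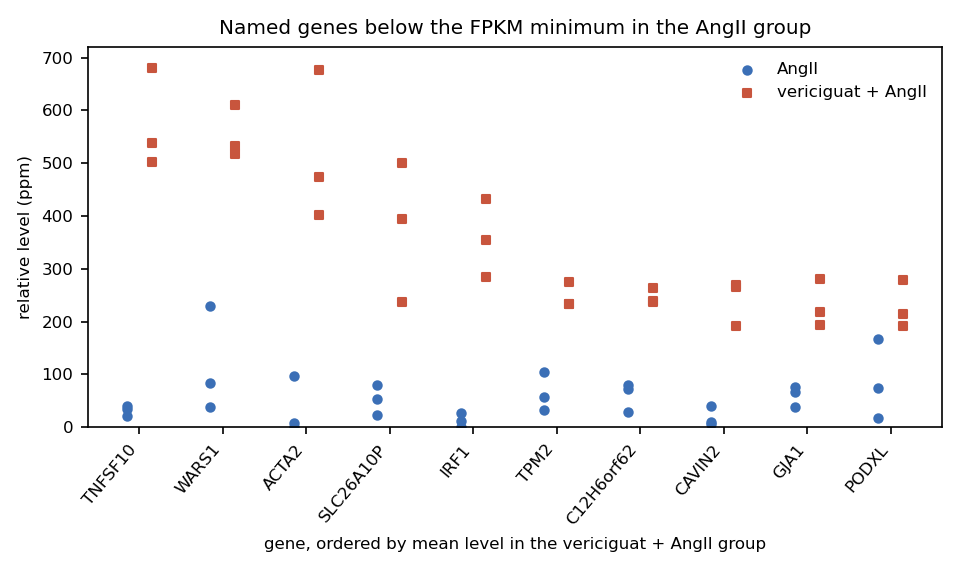
Level (y axis, ppm) of the 10 named genes that failed the FPKM minimum in the AngII group only and had the highest mean in the vericiguat + AngII group (x axis), with circles for the 3 AngII and squares for the 3 vericiguat + AngII libraries. The squares lie between 192 and 679 ppm, and the circles at 230 ppm or below.

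Genes of the pathway under study were at low FPKM in the AngII libraries. TGFB1, the gene of TGF-beta 1, was at 8.71, 90.1 and 0 ppm in the AngII group and at 24.1, 30.8 and 33.7 ppm in the treated ones, with the second AngII library above all of them. GUCY1A1 and GUCY1B1, the subunits of the guanylate cyclase that vericiguat stimulates, were at 22.0, 6.86 and 3.34 ppm and at 18.8, 8.68 and 3.14 ppm in the AngII group. In the treated group they were at 38.7, 30.2 and 37.1 ppm and at 41.0, 30.3 and 42.4 ppm, above every AngII library. PRKG1, protein kinase G, was at 1.23, 0 and 1.05 ppm against 5.82, 4.38 and 5.55 ppm. FN1, fibronectin, overlapped, at 37.1, 0 and 27.6 ppm against 34.9, 29.3 and 44.4 ppm, and CCN2, a target of TGF-beta signaling, did so at 64.8, 51.6 and 33.5 ppm against 98.3, 57.2 and 108 ppm. In the AngII libraries these genes all lay near or below an FPKM of 1, with GUCY1A1 and GUCY1B1 at 0.048 to 0.232, and no test was made. All of them failed the minimum in the AngII group only. Of all 10213 such genes 46.2% had the treated libraries apart above the AngII ones, so nothing is read from the direction. SMAD2 and SMAD3 are not named in the table.

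A ratio between genes of the same library does not depend on how the columns are scaled. The pairs below were chosen after their values were seen and are given with no test. The FPKM of CASQ2 divided by that of TRDN was 1.54, 1.20 and 0.433 in the AngII group, against 11.3, 11.4 and 13.0 in the treated group. For the myosins MYH7 and MYH6 the ratio was 3.50, 1.24 and 4.42 against 9.03, 11.1 and 12.2, with 19.8, 86.5 and 49.0 in the blank libraries. In both pairs the treated libraries agreed closely and none overlapped with the AngII ones, and for the myosins the AngII libraries were the lowest of the groups. TRDN was tested only through its higher AngII values, which makes a low CASQ2 to TRDN ratio likelier there. Freedom from scaling does not remove this selection, so nothing is read from the separation of that pair.

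Within the ATP synthase, ATP5F1A divided by ATP5MC2 was 0.863, 0.386 and 1.09 in the AngII group, against 3.92, 3.43 and 4.52 in the treated group. In glycolysis, ALDOA divided by the muscle enolase ENO3 was 0.369, 0.156 and 0.524 against 1.82, 1.42 and 1.64. Among mitochondrial genes, CKMT2 divided by SLC25A4 was 0.0450, 0.0625 and 0.0564 against 0.188, 0.146 and 0.187. All of these were apart between the groups, while the pump ATP2A2 divided by its inhibitor PLN overlapped at 0.0629, 0.673 and 0.0506 against 0.244, 0.283 and 0.202. HBA divided by HBB2 overlapped too, at 1.34, 2.27 and 1.39 against 3.24, 2.12 and 3.32.

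**Figure D5:**
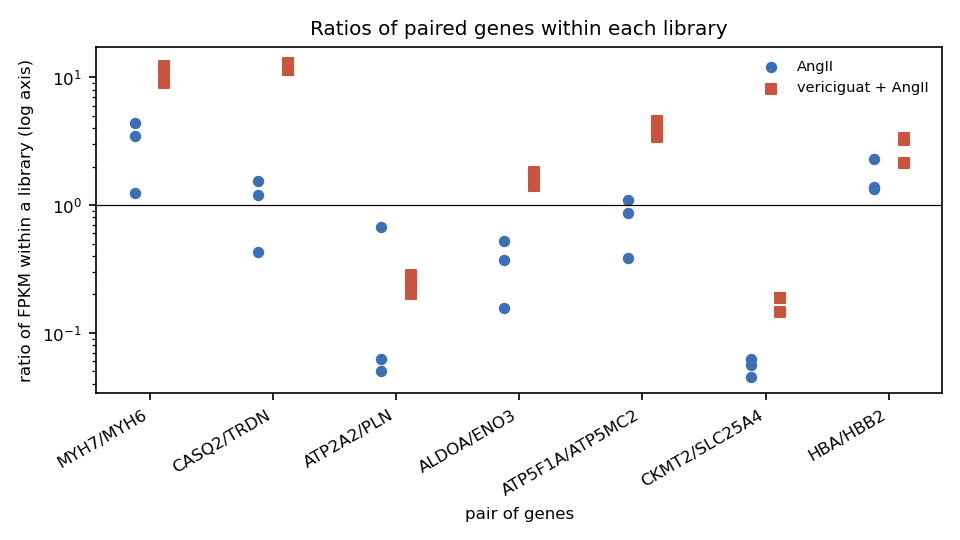
Ratio of FPKM of each gene pair (x axis) within each library (y axis, log axis), with circles for the 3 AngII and squares for the 3 vericiguat + AngII libraries and a line at equal FPKM. For CASQ2 to TRDN the squares lie between 11.3 and 13.0 and the circles between 0.433 and 1.54, and for ATP2A2 to PLN and HBA to HBB2 they overlap. TRDN was tested only through its higher AngII values.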

How the data were processed

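RNA of neonatal rat CFs was compared between 3 libraries of the AngII group and 3 of the vericiguat + AngII treatment group, with groups and replicates taken from the labels. Per the labels, the submitters' processing notes name FastQC 0.11.9, Trimmomatic 0.39, HISAT2 2.2.1, featureCounts 2.0.1 and the build OryCun2.0. The authors deposited FPKM per gene, and counts were not used here, so depth is unknown and intervals cover the spread between libraries only. Low FPKM values, which step by 1 fragment, put the relative depth of the second and the third library at 0.801 and 0.824 of the first in the AngII group and at 0.895 and 0.847 in the treated group. These values are rough, since 457 of 4651 and 578 of 4602 genes shared the step in the AngII group. In the treated group 445 of 3379 and 348 of 3377 did. Between groups only 25 of 365 genes shared a step (ratio 0.493), so no depth was compared.

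14 rows (13 KEF51, ADORA1-2) were left out, columns were rescaled to 1000000, and 1152 genes with FPKM of 1 or more in at least 2 libraries of each group were tested with limma 3.58.1 in R 4.3.3 on log2(ppm + 1), with a mean-variance trend, no covariate and all tested genes in the adjustment. Fold differences on this scale are slightly understated at low levels. Called means adjusted p below 0.05 and absolute log2 difference of at least 1. Steps were tested on simulated data. The genes and lists were chosen with earlier results of these data known, and lists are described by counts and medians without set tests. The named genes are those called in this fit, among them the 12 also called after centring columns on their median, members of the lists with the largest and smallest differences, genes measured in the study, and the 10 of highest level that failed the minimum in 1 group only. 23 alternatives were tried. No column was without a sample.

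The labels do not say that same-numbered libraries are paired, so the fit has no block. Promoter windows came from RefSeq, GRCr8, for rat, by symbol with case ignored.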

Additional observations from a re-analysis of the deposited data

Results flagged for a closer look

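The row ADORA1-2, which was left out of the rescaling, was higher in every treated library on the deposited FPKM, where nearly all tested genes were higher too. The median log2 difference of the tested genes on that scale was 4.26. The summed FPKM of the retained rows was 10558 to 15274 in the AngII libraries and 313103 to 353266 in the treated ones. ADORA1-2 was above that sum in each AngII library and below it in each treated one. Its FPKM was 92087 ± 25207 (SD, n = 3) in the treatment group, from 73030.2 to 120668, against 39982 ± 5575 (SD, n = 3) in the AngII group, from 35189 to 46101, a ratio of means of 2.30. The blank libraries had a mean of 27043. The row held 9.18% to 13.6% of the summed FPKM in the treated libraries and 1.93% to 2.52% in the AngII libraries. These are deposited FPKM, which were not tested, and what the row stands for was not tested.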

How the results depend on the processing

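The calls numbered 66, with 13 named genes. They numbered 65 and 67 (named 13 and 14) with pseudocounts of 0.1 and 10, 92 and 16 with median centring, 78 and 15 with median-ratio scaling, 70 and 14 with quantile normalization, 62 and 10 without the trend, and 66 and 10 with group-wise weights, an alternative chosen after seeing the data. They numbered 149 and 26 with FPKM of 1 or more in all 3 columns, 21 and 5 with FPKM of 5 or more, 1009 and 123 with the minimum blind to the groups, 2759 and 265 with no filter, 105 and 15 without the 20 highest genes in the sum, 1139 and 197 on the deposited FPKM, 27 and 7 with all 9 libraries in the fit (ACTB, ANKRD1, CASQ2, CKMT2, ST3GAL4 and TRDN lost), and 270 and 45 with unadjusted p-values. With the replicate block 143 and 26 were called; same-numbered libraries correlated at 0.0969, 0.0401 and -0.000477 in their deviations, and the third AngII library correlated best with the second treated one, so the numbers were not taken as pairs. Leaving out each library in turn gave 3 to 264 calls and 0 to 54 named ones, among 811 to 1152 genes tested. The causes were not tested.

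On the deposited FPKM the sign turned for ATP5MC2 (3.67), BBLN (2.18), CALD1 (3.70), COL1A2 (2.49), FTL (3.99), LUM (4.33), MGP (3.53), RPS29 (4.35), SLC2A4 (3.17), SRL (3.04), ST3GAL4 (2.10) and TRDN (2.35). It turned for CALD1 with quantile normalization (0.089), for DCN (-0.063) and HBB2 (-0.083) without the 20 highest genes in the sum, for MYH6 (-0.16) and LUM (0.51) without the first AngII library, for DCN without the second (-0.21), for MYH6 without the third (-0.025), and for HBB2 without the second treated library (-0.047). With each of the 6 libraries left out in turn, DCN ranged from -0.21 to 0.55, HBB2 from -0.047 to 0.56, LUM from -0.52 to 0.51 and MYH6 from -0.16 to 1.81. Over the 13 called genes and all alternatives that could be run, 228 values kept direction and call, 57 lost the call and 3 turned sign. Depth is unknown, and the minimum of FPKM 1 limits the AngII group most, where it is worth more ppm.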
